A study of Mus musculus with 5 samples.

Results

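Mag, Cnp, Mbp, Cmtm5 and Mpzl2 are genes of the myelin sheath or relatives of such genes, and their RNA was followed in sciatic nerves of Ebf2-/- and wild-type mouse pups. Each was taken as the probe sets with that 1 gene symbol in the platform annotation, which gave 5 probe sets, 1 per gene, of 10361 in the table. The pups were offspring of heterozygous parents, their nerves were taken at postnatal day 2, and each pool held 12 nerves of 1 genotype. The 2 knockout (KO) pools, numbered 2 and 4, came from Ebf2-/- pups, and the 3 wild-type (WT) pools, numbered 1, 9 and 11, from Ebf2+/+ pups. All pools share the C57Bl6N background, and each was hybridised to 1 Affymetrix whole-transcript array. A pool mixes the cells of many nerves. How many animals or litters stand behind it, and which part of Ebf2 the allele lacks, is not stated. Nothing says that Ebf2 was removed from Schwann cells alone.

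Myelin in peripheral nerve is the wrapped and compacted membrane of the Schwann cell. MAG, the myelin-associated glycoprotein, is a sialic acid-binding adhesion molecule (a siglec) of the inner, periaxonal membrane and appears as wrapping starts. CNP, the cyclic nucleotide phosphodiesterase of myelin-forming cells, lies in the cytoplasmic channels of non-compacted myelin and is also an early protein. MBP, myelin basic protein, joins the cytoplasmic faces of the membrane in compact myelin and is counted here as late. CMTM5 is a membrane protein with a MARVEL domain that is known from myelin of the central nervous system. MPZL2 is known as an adhesion protein of epithelia and thymus. Early B cell factors, the family of EBF2, bind DNA as dimers. EGR2 and SOX10 are the transcription factors best known for switching on myelin genes in Schwann cells.

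All levels are log2 values. Each log2 fold change is the KO mean (2 pools) minus the WT mean (3 pools), with its standard error (SE) from limma. A difference was called where the two-sided p, after Benjamini-Hochberg adjustment across the 10361 probe sets, was below 0.05. There were 70 calls (0.676%), 34 lower (0.328%) and 36 higher (0.347%) in KO. Ebf2 itself read 9.25 and 8.74 in KO pools 2 and 4, against 11.55, 11.13 and 11.40 in WT pools 1, 9 and 11 (log2 fold change -2.37, SE 0.19, limma adjusted p = 4.97e-07). Array medians ran from 8.93, in KO pool 4, to 9.11. WT pools 9 and 11 held more RNA of skin and muscle. The 15 measured of 18 keratinocyte markers averaged 7.35 and 7.62 in the KO pools, against 7.31, 9.12 and 8.50 in WT pools 1, 9 and 11. The 26 skeletal muscle markers averaged 10.10 and 10.33 in the KO pools, against 9.64, 11.00 and 10.84 in those WT pools. Their part in the results was not tested. Sox10, which marks Schwann cells, read 11.64 and 11.24 in the KO pools, against 11.65, 11.63 and 11.65 in the WT pools.

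Mag and Cnp, both early genes, differed in how far they lay from WT, and their upstream sequences are shown for that reason. Each window holds 250 bases before and 50 bases after an annotated start (RefSeq, GRCm38.p6), written 5′ to 3′ on the strand of the gene. The Mag window lies at chr7:30914814-30915113 on the minus strand and the Cnp window at chr11:100574689-100574988 on the plus strand. Capitals mark 2 motifs searched on both strands, with overlapping matches joined. They are the core of the early B cell factor motif, CCCNNGGG, which reads the same on both strands, and the EGR core GCGTGGG.
Mag: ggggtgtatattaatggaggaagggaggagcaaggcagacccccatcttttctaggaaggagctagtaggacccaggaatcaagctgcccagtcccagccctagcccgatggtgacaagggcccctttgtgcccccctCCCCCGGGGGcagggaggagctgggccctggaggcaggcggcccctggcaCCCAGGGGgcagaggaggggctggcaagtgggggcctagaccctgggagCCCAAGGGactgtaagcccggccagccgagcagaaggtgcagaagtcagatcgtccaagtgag
Cnp: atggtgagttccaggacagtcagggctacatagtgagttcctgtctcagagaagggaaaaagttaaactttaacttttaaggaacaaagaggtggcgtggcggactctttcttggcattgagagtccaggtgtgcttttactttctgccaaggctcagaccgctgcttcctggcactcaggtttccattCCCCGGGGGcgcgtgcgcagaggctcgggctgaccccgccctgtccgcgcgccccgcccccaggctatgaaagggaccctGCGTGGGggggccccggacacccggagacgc
In the Mag window the early B cell factor core matched in 3 stretches, of 10, 8 and 8 bases, whose first bases lie 112, 62 and 13 bases before the start. The windows of the other 2 annotated starts of Mag also had matches, but not all of them were further ones. The window at chr7:30914873-30915172 overlaps the one shown, and its 2 stretches are the same bases. The window at chr7:30914272-30914571 added 1 stretch of 9 bases, beginning 178 bases before its start. The Cnp window held 1 stretch of 9 bases, beginning 61 bases before the start, and 1 match to the EGR core after the start. This core was present in 13.7% of all 32851 windows and the EGR core in 5.04%. Neither window held the full palindrome, with a T before and an A after this core (0.904% of windows), or the SOX pentamer ACAAT (31.0%). Both Cmtm5 windows held none of these motifs. Cldn19, Gldn, Elovl7 and Ncmap, described below, are only some of the 34 probe sets called lower in KO. The early B cell factor core was in 0 of the 6 windows of these 4 genes. Mbp, Mpzl2, Pmp2 and Rit2 had no window and were not searched. A match to these letters is no evidence that a factor binds there.

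Mag was the sheath gene that fell. It read 10.72 and 10.52 in KO pools 2 and 4, against 11.38, 11.94 and 11.51 in WT pools 1, 9 and 11. Both KO pools thus lay below every WT pool, with 0.66 between the higher KO and the lowest WT pool, while the KO pools differed from each other by 0.20. WT pool 9, which had the most skin RNA, was also the highest in Mag. The mean level was 10.62 ± 0.14 (SD, n = 2) in KO and 11.61 ± 0.29 (SD, n = 3) in WT, or 1.99-fold less in KO (log2 fold change -0.99, SE 0.19, 95% interval -1.38 to -0.60, limma adjusted p = 0.0166). Against WT pool 1 alone, which is as low in skin markers as the KO pools, the log2 fold change was -0.76. The call did not hold there (limma adjusted p = 0.857) or without WT pool 1 (0.0914), WT pool 9 (0.831), KO pool 2 (0.161) or KO pool 4 (0.782), nor after median centring (0.364) or quantile normalisation (0.310) or without moderation of the variances (0.560), with log2 fold changes from -1.11 to -0.76 over all 11 alternatives. In whole nerve, fewer Schwann cells and less RNA per cell cannot be told apart.

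**Figure D1:**
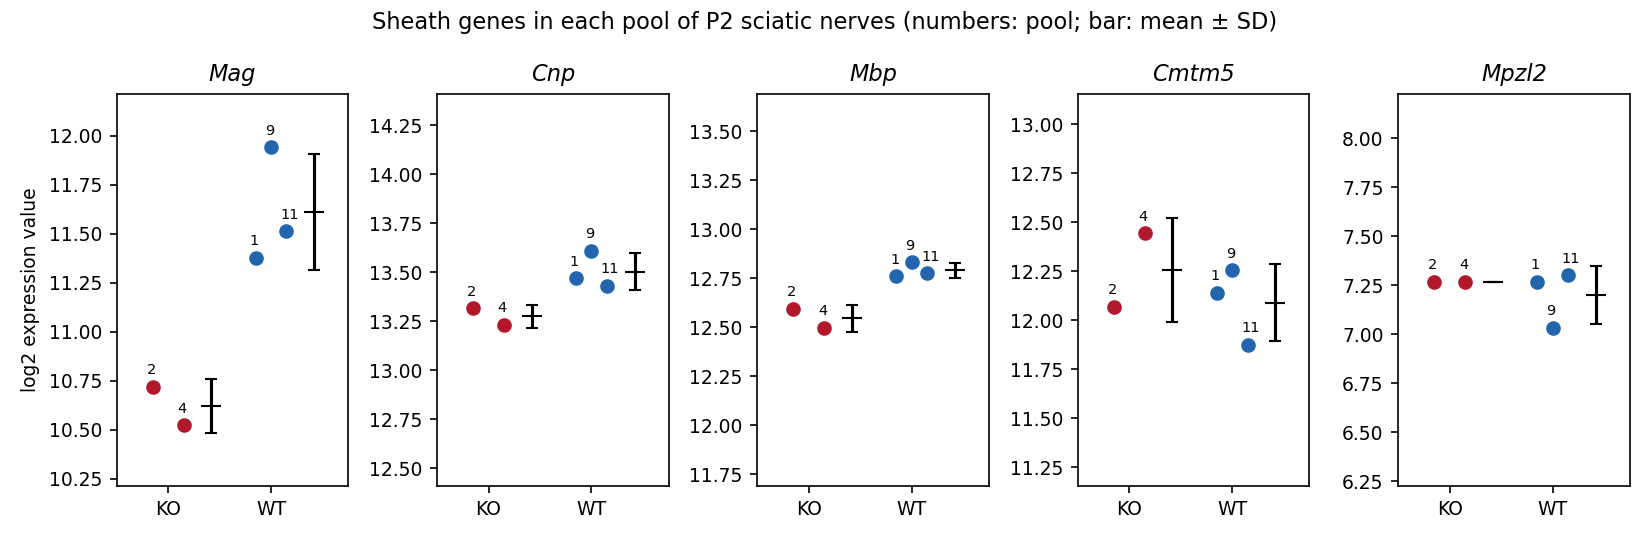
Log2 expression value (vertical axis, spanning 2 log2 units in every panel) of the 5 genes in each pool, KO on the left in red and WT on the right in blue, with the pool number above each point and the mean ± SD of the group beside it (n = 2 KO and 3 WT pools). The KO pools lie below all WT pools in Mag (gap 0.66), Cnp (0.12) and Mbp (0.17), and overlap them in Cmtm5 and Mpzl2.

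Cnp did not pass the test. It read 13.32 and 13.23 in the KO pools, against 13.47, 13.61 and 13.43 in WT pools 1, 9 and 11. The groups did not overlap, but the gap between them was 0.12 and the WT pools alone spanned 0.18. The log2 fold change was -0.23 (SE 0.17, limma adjusted p = 0.549), with a 95% interval from -0.58 to 0.12 that includes 0. Over the 11 alternatives, some of which cannot alter it, the log2 fold change ran from -0.27 to -0.17. With a variance trend in limma Cnp was lower at unadjusted p below 0.05, as were 7.44% of all probe sets, but it was not called.

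Mbp, the late protein gene, had nearly the same difference as Cnp and did not pass either. It read 12.60 and 12.50 in the KO pools, against 12.76, 12.83 and 12.78 in WT pools 1, 9 and 11. The WT pools agreed within 0.07 and the gap to the higher KO pool was 0.17. Its log2 fold change was -0.24 (SE 0.17, 95% interval -0.59 to 0.10, limma adjusted p = 0.519), and from -0.30 to -0.18 over the 11 alternatives. The width of this interval rests on moderation of the variances. Without it the SE of Mbp was 0.046, and Mbp was lower at unadjusted p below 0.05, as were 2.12% of all probe sets. After quantile normalisation Mbp was also lower at that level, as were 6.36%. Neither setting gave a call. The probe set is annotated with several Mbp transcripts, so isoforms of the locus are not separated.

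In all, 3 of the 5 genes had both KO pools below every WT pool, where 13.3% of all probe sets did, and 1 of the 5 was called lower. The 3 genes without overlap were Mag, Cnp and Mbp, and they also did not overlap after median centring (gaps of 0.67, 0.06 and 0.09, with 17.9% of all probe sets then without overlap and lower in KO) or quantile normalisation (gaps of 0.69, 0.15 and 0.19, with 19.1%).

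Cmtm5 gave no direction. It read 12.07 and 12.44 in KO pools 2 and 4, against 12.14, 12.25 and 11.88 in WT pools 1, 9 and 11, so that KO pool 4 was the highest of the 5 pools, KO pool 2 lay inside the WT range, and the KO pools differed by 0.37. The log2 fold change was 0.17 (SE 0.18, 95% interval -0.21 to 0.54, limma adjusted p = 0.674). It was 0.35 without KO pool 2 and -0.02 without KO pool 4.

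Mpzl2 was the gene with the least difference. It read 7.27 in both KO pools, against 7.27, 7.03 and 7.30 in WT pools 1, 9 and 11. The same value, 7.269, stood on 3 of the 5 arrays, as it did for some value in 7.23% of the probe sets, and a repeat of this kind can come from the median polish. WT pool 9, with the most keratinocyte RNA, had the lowest Mpzl2 value. The log2 fold change was 0.07 (SE 0.17, 95% interval -0.28 to 0.42, limma adjusted p = 0.842), and -0.02 without WT pool 9. No detection call came with the values, so whether Mpzl2 was above background in any pool is unknown.

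The design also allows the question whether early and late sheath genes differ in their response. Within each pool the Mbp value was subtracted from that of Mag, and only the change of this difference between genotypes has a meaning. It was -1.88 and -1.98 in the KO pools, against -1.39, -0.89 and -1.26 in WT pools 1, 9 and 11, and thus 0.75 lower in KO, without overlap. Mag minus Cnp was -2.60 and -2.71 in the KO pools, against -2.09, -1.67 and -1.92 in the WT pools, a change of -0.76, again without overlap. Cnp minus Mbp was 0.72 and 0.73 in the KO pools, inside the WT values of 0.71, 0.78 and 0.65, and changed by 0.01. In an exact two-sided permutation test over the 10 splits of the pools p was 0.10 for both differences with Mag, the smallest that 2 against 3 pools can give (0.15 after adjustment over the 3 differences), and 0.70 for Cnp minus Mbp. The step thus lay between Mag and the other two genes, not between the early pair and the late gene, although 5 pools cannot bring it below 0.05. Of the other genes listed as late, Pmp2, whose protein binds fatty acids in compact peripheral myelin, was measured. It read 10.41 and 8.97 in the KO pools, against 11.53, 12.31 and 11.67 in the WT pools (log2 fold change -2.14, SE 0.29, limma adjusted p = 0.000407).

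Set against Sox10 within each pool, Mag stayed below WT while Mbp and Cnp overlapped it. Mag minus Sox10 was -0.93 and -0.72 in the KO pools, against -0.28, 0.31 and -0.14 in the WT pools, a mean change of -0.79 without overlap. Mbp minus Sox10 was 0.95 and 1.25 in KO pools 2 and 4, against 1.11, 1.20 and 1.13 in the WT pools. Cnp minus Sox10 was 1.67 and 1.99 in the KO pools, against 1.82, 1.97 and 1.78 in the WT pools. In both, KO pool 2 lay below every WT pool and KO pool 4 above. The mean changes, -0.04 for Mbp and -0.03 for Cnp, thus average opposite pools. Sox10 was lower in KO pool 4 alone. Among the other Schwann lineage markers Erbb3, a neuregulin receptor subunit, read 12.53 and 11.90 in the KO pools, against 12.66, 12.75 and 12.66 in the WT pools (log2 fold change -0.47, SE 0.19, limma adjusted p = 0.243). Of 9 measured of 14 lineage markers 0 passed in limma, with 1 higher and 2 lower at unadjusted p below 0.05 (7.14% higher and 7.17% lower over all probe sets). The median log2 fold change was 0.02, but the list was split. Of the 9, 4 lay below 0, with Cdh19 the lowest at -0.56, and 5 above 0, with Gfra3 the highest at 0.47 and Cdh2 at 0.36.

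Other sheath and Schwann membrane genes lay lower in the KO pools. Of 10 measured of 20 such genes, 4 fell, 0 rose and 6 did not pass, where 0.328% of all probe sets were called lower. All 10 had both KO pools below every WT pool, and their median log2 fold change was -0.70, against -0.002 over all probe sets. The falls were Pmp2, Cldn19, Gldn and Ncmap. Cldn19, a claudin of Schwann cell tight junctions, read 11.32 and 10.77 in the KO pools, against 11.87, 12.42 and 12.16 in the WT pools (log2 fold change -1.11, SE 0.20). Gldn, whose protein gliomedin helps to assemble nodes of Ranvier, read 8.84 and 8.39 in the KO pools, against 9.40, 10.03 and 9.46 in the WT pools (log2 fold change -1.02, SE 0.20). Ncmap, for a protein of non-compact myelin, read 8.45 and 8.33 in the KO pools, against 8.94, 9.54 and 9.28 in the WT pools (log2 fold change -0.86, SE 0.19). WT pool 9 was the highest pool in all 4 genes, as it was in Mag, and KO pool 4 the lowest. The count was 0 in 8 of the 11 alternatives, among them WT pool 1 alone and the fits without WT pool 1, WT pool 9, KO pool 2 or KO pool 4. The log2 fold change of Pmp2 was -1.42 without KO pool 4, and that of Ncmap -0.55 against WT pool 1 alone. This list was drawn up with earlier results of these data known.

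Markers of vessels and connective tissue lay on the other side. All 12 endothelial markers had a log2 fold change above 0 (median 0.42), and 0 passed in limma. Both KO pools lay above every WT pool in 6 of them, and in 17.5% of all probe sets. At unadjusted p below 0.05, 7 of the endothelial markers were higher and 0 lower (7.14% higher and 7.17% lower over all probe sets). They averaged 10.82 and 10.62 in the KO pools, against 10.61, 10.24 and 10.22 in WT pools 1, 9 and 11, and the median was 0.14 against WT pool 1 alone. Of 14 fibroblast markers 7 were measured, all above 0 (median 0.23, or 0.13 against WT pool 1 alone), 0 passed in limma, 1 was higher and 0 lower at unadjusted p below 0.05, and 5 did not overlap. The part of these cells in the sheath gene differences was not tested.

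**Figure D2:**
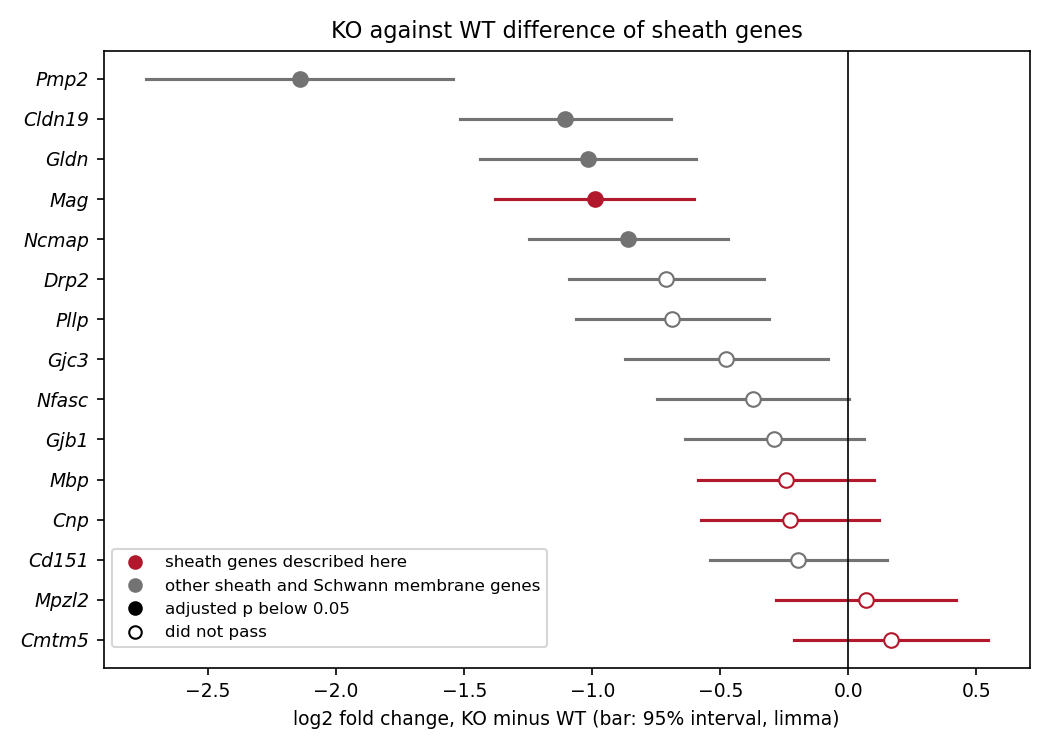
Log2 fold change, KO minus WT (horizontal axis), with its 95% interval from limma for the 5 genes (red) and the 10 other measured sheath and Schwann membrane genes (grey); filled points passed adjusted p below 0.05. Mag lies at -0.99 among the genes that fell, while Cnp (-0.23) and Mbp (-0.24) have moderated intervals that include 0.

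Genes of the same protein families showed no shared direction. Of 19 CMTM and MARVEL domain genes 6 were measured and 0 passed in limma. At unadjusted p below 0.05, 1 was higher and 1 lower (7.14% higher and 7.17% lower over all probe sets). Pllp, for plasmolipin, a myelin protein, read 10.94 and 10.73 in the KO pools, against 11.37, 11.81 and 11.38 in the WT pools (log2 fold change -0.69, SE 0.18, limma adjusted p = 0.0775). Plp2, a proteolipid of the MARVEL family, read 10.04 and 10.05 in the KO pools, against 9.65, 9.25 and 9.44 in the WT pools (log2 fold change 0.59, SE 0.17, limma adjusted p = 0.110). Mall and Cklf were at 0.37 and -0.34. Among siglecs Cd33, of myeloid cells, stood beside Mag with a log2 fold change of -0.03.

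No measured partner of the sheath proteins passed the test. Over all probe sets 0.676% passed, and 7.14% were higher and 7.17% lower at unadjusted p below 0.05, so lists this short can hold 0 calls whatever their genes. Of 14 partners and receptors of MAG 8 were measured, 0 passed in limma and 0 reached unadjusted p below 0.05, with log2 fold changes from -0.28 to 0.30. Both KO pools lay below every WT pool in 3 of the 8 (13.3% of all probe sets) and above in 1 (17.5%). The widest were Lrp1, an endocytic receptor (0.30, SE 0.17), Map1b, a microtubule protein (-0.28, SE 0.20), St3gal3, a sialyltransferase (-0.24, SE 0.17), and Pirb (-0.23, SE 0.17). Of 14 genes for handling of myelin messenger RNA or modification of MBP 7 were measured, 0 passed and 0 reached unadjusted p below 0.05, from -0.20 for the kinase gene Fyn to 0.09 for Khdrbs1.

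Of 14 transcription factors of myelination 10 were measured, 1 rose (Ebf1), 2 fell (Ebf2 and Egr2) and 7 did not pass. Over all probe sets 0.347% were called higher and 0.328% lower. Ebf2 is the gene that the knockout targets, so its fall was set by the design. Ebf1, a close relative of Ebf2, read 11.98 and 12.12 in the KO pools, against 11.45, 11.15 and 11.32 in the WT pools (log2 fold change 0.75, SE 0.17, limma adjusted p = 0.0445). Egr2 read 10.72 and 9.75 in the KO pools, against 11.19, 11.53 and 11.39 in the WT pools (log2 fold change -1.13, SE 0.22, limma adjusted p = 0.0181). The Ebf1 call held in 2 of the 11 alternatives and the Egr2 call in 3, and neither held against WT pool 1 alone or without WT pool 1, WT pool 9, KO pool 2 or KO pool 4. Without WT pool 11 the Ebf1 call was lost as well. Without KO pool 4 the Egr2 log2 fold change was -0.65. The KO pools differed by 0.96 in Egr2, 1.44 in Pmp2, 0.55 in Cldn19 and 0.44 in Gldn, with KO pool 4 the lower in each. They differed by 0.20 in Mag, 0.12 in Ncmap, 0.10 in Mbp and 0.08 in Cnp. How the sheath genes relate to Egr2 was not tested. Pou3f1, which precedes Egr2, read 11.51 and 11.01 in the KO pools, against 11.61, 11.79 and 11.68 in the WT pools (log2 fold change -0.43, SE 0.18, limma adjusted p = 0.270).

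**Figure D3:**
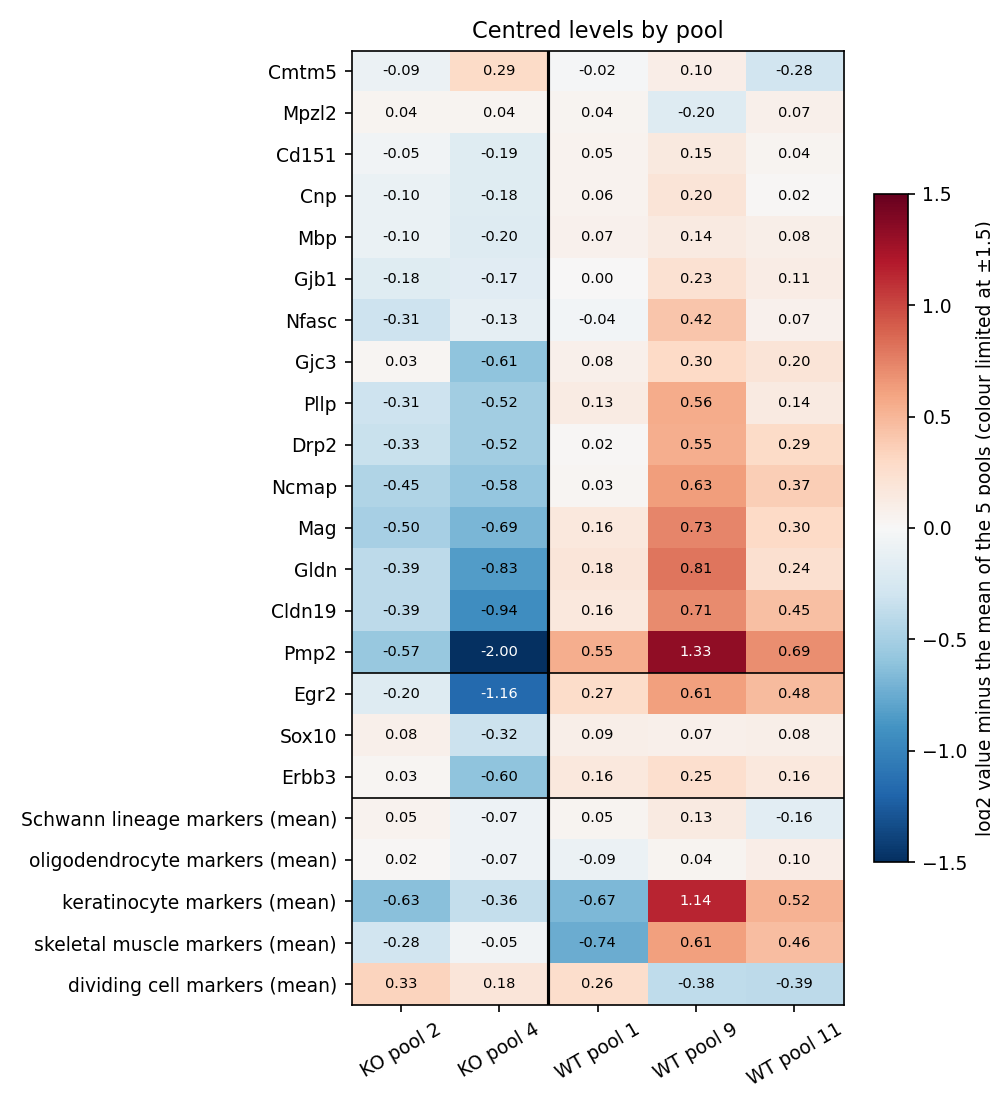
Log2 value minus the mean over the 5 pools, in colour and printed in each cell, for the sheath genes (top), 3 Schwann cell genes (middle) and the means of 5 marker lists (bottom), with the 2 KO pools left of the line and the 3 WT pools right of it. Mag is lowest in KO pool 4 and highest in WT pool 9, as are Cnp and Mbp, which did not pass, and Pmp2, Cldn19, Gldn and Ncmap, which fell, and the keratinocyte and skeletal muscle means are highest in WT pools 9 and 11.

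Mag, Cnp and Mbp are also made by oligodendrocytes of the central nervous system, which a sciatic nerve lacks. Of 12 oligodendrocyte markers 7 were measured, 0 passed in limma (0.676% of all probe sets did) and the median log2 fold change was 0.13. At unadjusted p below 0.05, 0 were higher and 1 lower, against 7.14% higher and 7.17% lower over all probe sets. Their mean level was 8.30 and 8.21 in the KO pools and from 8.20 to 8.38 in the WT pools. Of the 7, 5 lay above 0 and 2 below. Opalin, a defining marker and among those above, read 5.69 and 5.77 in the KO pools, against 5.33, 5.69 and 5.69 in the WT pools. Aspa, the 1 lower at unadjusted p below 0.05, read 11.47 and 10.23 in the KO pools, against 11.63, 11.84 and 11.52 in the WT pools (log2 fold change -0.81, SE 0.25, limma adjusted p = 0.123). Cldn11, the other below 0, was at -0.21. Of 12 markers of dividing cells 11 were measured, 10 above 0 and 1 below, and 0 were called. At unadjusted p below 0.05, 7 were higher and 0 lower (7.14% higher and 7.17% lower over all probe sets). The 1 below 0 was Top2a (log2 fold change -0.35, SE 0.24). On average these markers lay higher in the KO pools and in WT pool 1 than in WT pools 9 and 11. Their mean was 11.01 and 10.86 in the KO pools, against 10.95, 10.31 and 10.30 in WT pools 1, 9 and 11. The part of these cells in the Mag difference was not tested.

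The genes with the profile closest to each sheath gene were found by the root mean square distance over the 5 pools, each profile centred on its own mean, among 9406 genes. The distance depends on how much a gene varies, and Mag itself varied by 0.523, against 0.125 for Mbp, 0.129 for Cnp, 0.099 for Mpzl2 and 0.189 for Cmtm5, so numbers of close genes cannot be set against each other. Closest to Mag were Elovl7, an enzyme that lengthens fatty acids (distance 0.054), Rit2, a small GTPase (0.072), Gldn (0.092) and Ncmap (0.096). A gene this close to Mag must have nearly the same fold change. Elovl7 read 9.61 and 9.39 in the KO pools, against 10.26, 10.85 and 10.53 in the WT pools. Rit2 read 7.55 and 7.43 in the KO pools, against 8.28, 8.92 and 8.28 in the WT pools. Closest to Mbp were Rbks, Fubp1, Fam178b and Farp2, to Cnp Wrap73, Cc2d1b, Srp14 and Wasf1, to Cmtm5 Snd1, Piezo2, Tmem107 and Ipo4, and to Mpzl2 Gpat2, Lgr4, Mir26b and Rtca. These are descriptions over 5 pools and carry no test.

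**Figure D4:**
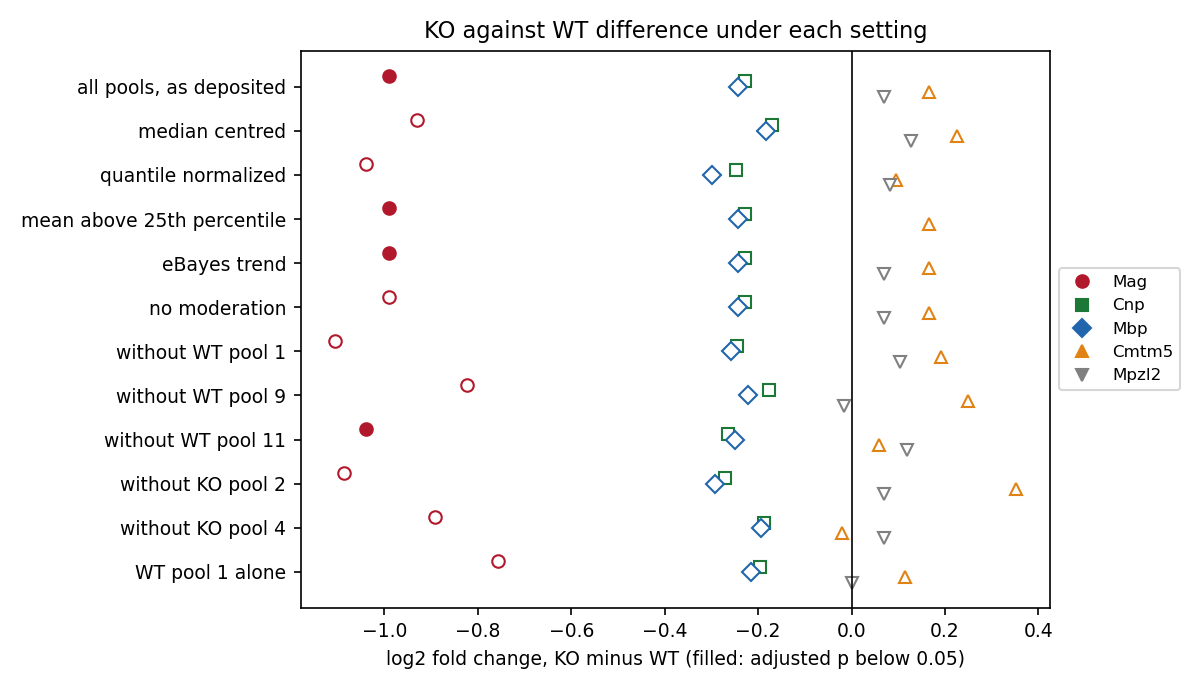
Log2 fold change, KO minus WT (horizontal axis), of the 5 genes with all pools as deposited and under each of 11 other settings (vertical axis), or 10 for Mpzl2, whose mean was below the 25th percentile filter; filled symbols passed adjusted p below 0.05. Mag runs from -1.11 to -0.76, apart from the other genes in every setting, but is filled in 4 of the 12 rows.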

How the data were processed

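The values the authors deposited are on the log2 scale. Per the submitters' processing notes they came from RMA, which corrects background, equalises the arrays and summarises probes. No version or setting is stated. The table holds 10361 probe sets, with values from 2.84 to 14.3. In every probe set the fourth-ranked value exceeded the lowest by at least 0.175, as a filter on spread would leave, and no such filter is stated. Genes with little spread are not analysed here, and small variances missing from the table can make adjusted p-values too small. The platform annotation gave 9411 probe sets 1 symbol, 384 several and 566 none. All 5 symbols matched RefSeq (GRCm38.p6). Where a symbol had several probe sets the one with the highest mean was used.

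Genotypes were compared with limma 3.58.1 in R 4.3.3 (lmFit and eBayes, default prior, no covariates), with 3 residual and 17.4 prior degrees of freedom. The fit was tested on simulated data with normal noise and variances drawn from limma's own prior. These data lack the skin and muscle differences between the pools, so that test says nothing about the calls made here. P-values reflect the spread among these 5 pools only, part of which may be technical, and the number of arrays limits the precision. Members and gene lists were chosen with earlier results of these data known. Besides the 5 genes, the text names genes of the sheath, family and partner lists that were called or had the 4 largest differences, Ebf2, Egr2, Sox10 and Pou3f1, and the 4 closest profiles of each member. Erbb3, Cdh19, Gfra3, Cdh2, Opalin, Aspa, Cldn11, Top2a and Ebf1, and the differences from Sox10 within each pool, were added after the values were seen. Alternatives were 2 scalings, a filter at the 25th percentile of the mean, a variance trend, no moderation, each pool left out, and WT pool 1 alone.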

Additional observations from a re-analysis of the deposited data

How the results depend on the processing

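The direction held under all 11 alternatives for Mag, Cnp and Mbp, and neither Cnp nor Mbp was called in any. The filter on dim probe sets, the variance trend and no moderation do not alter the log2 fold change of a gene. Direction could not change in those settings. The Mag call held with a variance trend, with the filter on dim probe sets and without WT pool 11. It was lost after median centring (log2 fold change -0.93), after quantile normalisation (-1.04), without moderation (-0.99) and against WT pool 1 alone (-0.76). With 1 pool left out in turn the Mag log2 fold change ran from -1.11 to -0.82 (limma adjusted p from 0.00874 to 0.831). Where 1 KO pool was left, it was assumed to vary like the WT pools. Leaving out pools gave -0.29 to -0.19 for Mbp, -0.27 to -0.18 for Cnp, -0.0155 to 0.12 for Mpzl2 and -0.0203 to 0.35 for Cmtm5. Mpzl2 turned below 0 without WT pool 9, and Cmtm5 without KO pool 4. The change of Mag minus Mbp ran from -0.85 to -0.60, of Mag minus Cnp from -0.86 to -0.65 and of Cnp minus Mbp from -0.0145, without WT pool 11, to 0.0465. The 70 called probe sets became 158 with a variance trend, 1 after median centring, 1 after quantile normalisation, 0 in limma without moderation (498 at unadjusted p below 0.05), 0 against WT pool 1 alone (127) and 0 to 105 with a pool left out. Of the other sheath genes, the 4 falls became 0 after median centring, after quantile normalisation, without moderation and against WT pool 1 alone, and 0 to 3 with a pool left out. Of 208 list medians under alternatives, 181 moved by less than the SD of the list mean between pools of a genotype. With a variance trend or without moderation a median could not move, so those settings are no sign of stability. A change of sign could also count as a small move. The keratinocyte median, counted so, went from -0.47 to 0.16 against WT pool 1 alone. No paired analysis was possible because the genotypes share no pool number. The cause of the lost calls was not tested.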

Other observations

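Genes that flank the 5 sheath genes along the chromosome did not pass the test, where 0.676% of all probe sets did. Of the 3 protein-coding genes on each side, 4 were measured for Mbp, 3 for Cmtm5, 2 for Mpzl2, 1 for Cnp and 0 for Mag, whose direct neighbour Cd22 is another siglec gene. For Mbp the log2 fold changes of the flanking genes ran from -0.21 (Zfp236) to 0.19 (Tshz1). Dnajc7, next to Cnp, was at -0.28 (SE 0.18), close to the -0.23 of Cnp itself. Beside Cmtm5, Myh7, the slow myosin heavy chain of muscle, was at 0.43 (SE 0.19, limma adjusted p = 0.316), and Mpzl2 lies next to Cd3e, a gene of T cells, at 0.17 (SE 0.17). These genes were named after their values were seen.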
